A study of Mus musculus with 15 samples.

Results

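The MYC, MAX and MXD network was followed across the sorted cells of mouse skin tumours as 10 of the 37583 genes in the count tables. It held the activators Myc, Mycn and Mycl, their shared partner Max, the repressors Mxd1, Mxi1, Mxd3 and Mxd4, and the further MAX partners Mnt and Mga. The genes were found by Ensembl gene identifier, and all 10 passed the filter on low counts that left 14652 genes for testing. The network was selected on the Mxd1 counts of these libraries, which had been seen to differ between a6-high and a6-low cells, so values of that comparison are given as a description.

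RNA sequencing was done on tumours that DMBA/TPA had induced over more than 24 weeks in C57BL/6 mice. The SIRT6 KO mice carried K14-cre and SIRT6 flox/flox, and the controls were WT. Tumour cells were sorted into CD34+ a6-high, CD34- a6-high and CD34- a6-low cells, where a6 is integrin alpha 6, the product of Itga6. Each of the 3 populations had 2 KO and 3 WT libraries, 15 in all. All groups shared the DMBA/TPA treatment, a carcinogen followed by a tumour promoter. The K14 promoter drives Cre in basal keratinocytes and their progeny, so other cell types of a KO tumour would keep the gene. Separate animals are not named for the libraries of a group, so a p-value speaks of the spread among these libraries, which can be partly technical.

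MYC proteins bind DNA as dimers with MAX at the E-box CACGTG and raise transcription of genes for ribosome production, growth and metabolism. MXD proteins and MNT form dimers with MAX at the same sites and bring the SIN3 corepressor, and MGA joins MAX to a Polycomb complex, PRC1.6. In the epidermis Mxd1 is known from cells that leave the cell cycle and differentiate, while Myc drives growth of progenitors. SIRT6, a chromatin deacetylase, is known as a corepressor of MYC at ribosomal genes.

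Libraries held 10.08 to 28.62 M gene counts (median 20.27 M). Sirt6, the targeted gene, had 5.07 to 8.53 CPM in the 6 KO and 4.45 to 10.5 CPM in the 9 WT libraries, which overlap. Counts cover the whole gene and can include reads outside the deleted part, so these levels do not check the genotype labels. The reason for the overlap was not tested. The sort markers matched the labels for CD34, with Cd34 at 163 to 214 CPM (gene counts scaled to a library size of 1e6) in CD34+ libraries and 4.51 to 40.3 CPM in the CD34- libraries. Itga6 did not match in a pair of a6-low libraries, KO replicate 2 at 445 CPM and WT replicate 1 at 471 CPM, against 360 to 460 CPM in CD34- a6-high libraries. The a6-high to a6-low ratios of the members are therefore also given without those libraries. The Y-linked genes Ddx3y, Eif2s3y, Kdm5d and Uty were detected at 2.93 to 109 CPM in the 3 KO libraries numbered 2. They stood at no more than 0.222 CPM in the other 12. By this signal the KO libraries numbered 2 hold male cells and differ in sex from all WT libraries. Genotype and sex are thus partly confounded, and the part of sex in the KO minus WT values was not tested. Keratin 14 (Krt14) stood at 28325 to 74974 CPM. The T cell marker Cd3e and the neutrophil markers Csf3r and Ly6g were at or near 0, with at most 0.164 CPM, and the 11 T and natural killer cell markers summed to at most 3.94 CPM. The 18 neutrophil and mast cell markers summed to 7.9 to 37.2 CPM in CD34+ a6-high, 47 to 155 CPM in CD34- a6-high and 22.8 to 80.9 CPM in a6-low libraries. Among them Il1r2, a decoy receptor of interleukin 1, reached 153 CPM, and Cxcr2, a chemokine receptor, 8.36 CPM.

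Promoter windows show which network genes carry the motif that the network's own dimers bind. The windows are those of RefSeq on GRCm38.p6, from 250 bases before to 50 bases after a gene's start, and 9 of the 10 genes had an entry (11 windows). The windows of Mxd1 and Mycl are shown because the results turn on these genes, and those of Max and Mxd4 because they hold an E-box. Capitals mark the CCAAT box in Mxd1, the TATA box letters (TATAAA) in Mycl and the E-box (CACGTG) in Max and Mxd4. The windows lie at chr6:86669110-86669409 on the minus strand for Mxd1, chr4:122995681-122995980 on the plus strand for Mycl, chr12:76962199-76962498 on the minus strand for Max and chr5:34187661-34187960 on the minus strand for Mxd4.
Mxd1: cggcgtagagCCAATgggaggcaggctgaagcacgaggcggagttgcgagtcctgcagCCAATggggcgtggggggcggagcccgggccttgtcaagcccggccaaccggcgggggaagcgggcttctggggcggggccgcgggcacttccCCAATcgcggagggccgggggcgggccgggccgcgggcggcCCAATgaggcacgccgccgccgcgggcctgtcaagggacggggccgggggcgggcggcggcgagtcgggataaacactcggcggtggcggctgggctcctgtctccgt
Mycl: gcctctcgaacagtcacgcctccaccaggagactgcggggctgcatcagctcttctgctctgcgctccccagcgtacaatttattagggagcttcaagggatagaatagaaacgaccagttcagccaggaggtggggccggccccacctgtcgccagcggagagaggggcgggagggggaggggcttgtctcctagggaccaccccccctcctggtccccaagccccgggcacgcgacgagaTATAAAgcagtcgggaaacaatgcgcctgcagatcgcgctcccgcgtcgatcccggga
Max: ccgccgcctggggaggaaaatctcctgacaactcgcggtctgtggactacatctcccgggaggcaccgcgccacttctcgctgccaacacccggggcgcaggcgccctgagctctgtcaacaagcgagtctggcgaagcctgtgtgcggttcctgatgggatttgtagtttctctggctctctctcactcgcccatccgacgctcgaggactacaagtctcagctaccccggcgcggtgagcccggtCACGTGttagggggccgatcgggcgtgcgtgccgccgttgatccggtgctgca
Mxd4: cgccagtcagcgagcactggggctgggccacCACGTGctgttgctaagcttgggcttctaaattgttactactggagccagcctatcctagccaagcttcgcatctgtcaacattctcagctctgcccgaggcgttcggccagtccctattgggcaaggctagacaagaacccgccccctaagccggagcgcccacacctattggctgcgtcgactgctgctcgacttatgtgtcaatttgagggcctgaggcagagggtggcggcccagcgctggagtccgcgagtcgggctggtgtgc

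An E-box was found in 3 of the 9 genes, Max, Mxd4 and Mnt, against 7.2% of all 32851 windows of this length. It began 3 bases before the start in Max, 219 before in Mxd4 and 123 before in Mnt. Mxd1 had no CACGTG in its window but 4 CCAAT boxes, which began 240, 192, 99 and 58 bases before the start. At least 4 CCAAT boxes were present in 1.06% of all windows, and at least 1 in 37.4%. The only TATAAA match among the 9 genes began 8 bases before the start of Mycl (13.6% of all windows). It is a match of letters, and whether it acts as a TATA box was not tested. The GC box GGGCGG was found in 8 of the 9 genes (35.7% of windows), and the AP-1 motif TGANTCA in 0 of 9 (7.8%). Both strands were searched, and matches of different motifs did not overlap. The windows are a description of sequence, and no binding was measured.

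Myc stood far above the rest of the network. Levels between genes were compared as CPM per kb of exon, and Myc averaged 131 ± 43.3 CPM per kb over the 15 libraries (SD). Mxd1 followed at 9.89 ± 4.26, Mxi1 at 6.51 ± 1.04 and Mxd3 at 3.52 ± 1.51 CPM per kb. Myc exceeded Mxd1 in 15 of 15 libraries and Mxi1 exceeded Mxd3 in 15 of 15, but Mxd1 exceeded Mxi1 in 11 of 15. Mycl averaged 2.45, Max 2.16 and Mxd4 2.11 CPM per kb, and their order was not stable, since Mycl exceeded Max in 9 and Max exceeded Mxd4 in 7 of 15 libraries. Mnt at 1.22, Mga at 0.827 and Mycn at 0.415 CPM per kb closed the order. Mycn was covered by only 3 to 101 reads per library, so its levels are imprecise.

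**Figure D1:**
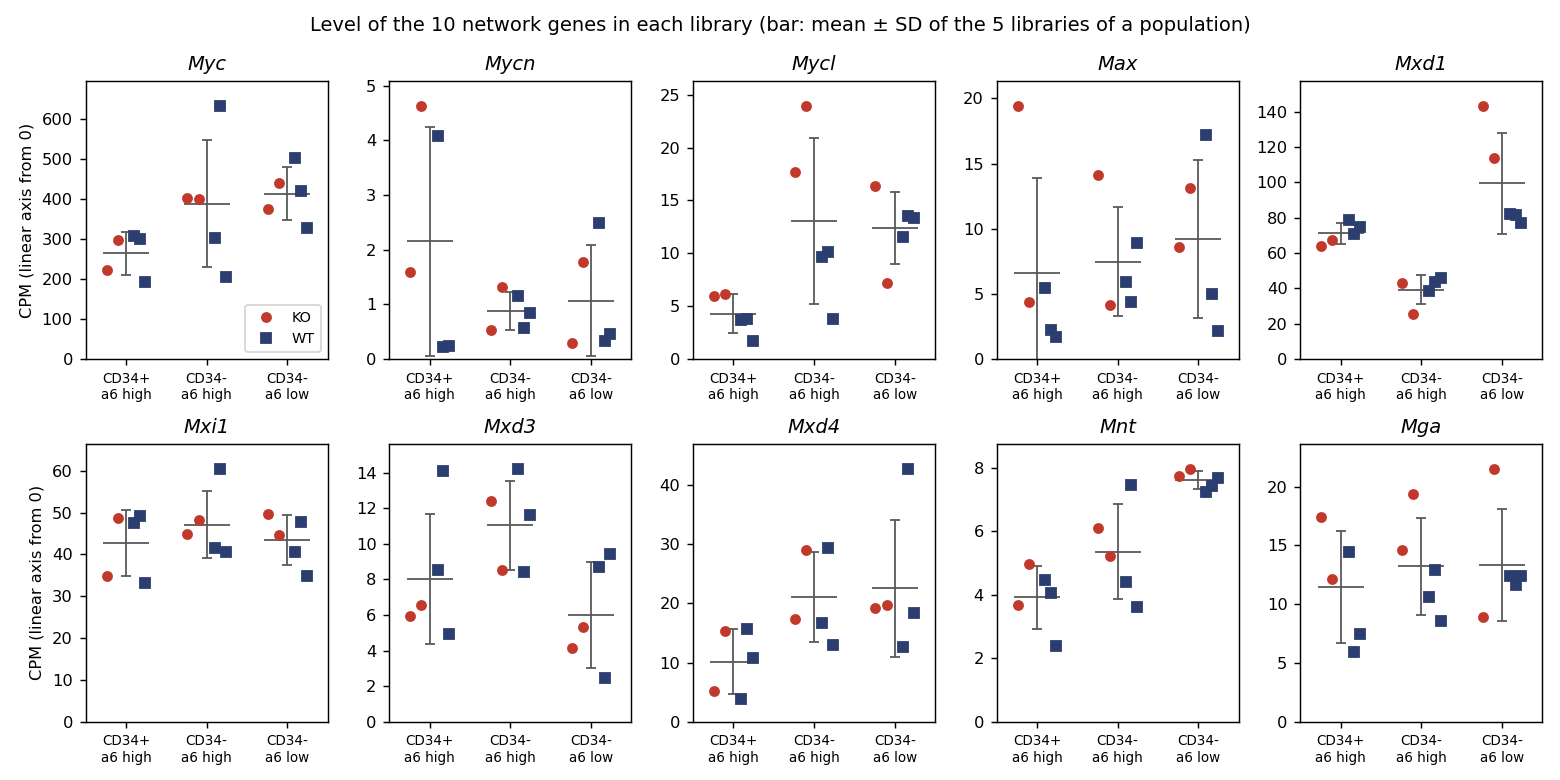
Level of each network gene in CPM (linear axes from 0) in the CD34+ a6-high, CD34- a6-high and CD34- a6-low libraries, with KO as circles left of WT as squares; the grey bar is the mean ± SD of the 5 libraries. Mxd1 stands at 25.2 to 46.0 CPM in CD34- a6-high libraries and at 64.1 CPM or more in the other 10, where the CD34+ a6-high libraries (up to 78.9 CPM) and the a6-low libraries (from 77.1 CPM) overlap.

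Among the activators, Myc, the growth-promoting oncogene, was expressed in every library. In CD34+ a6-high cells it had 222 and 298 CPM in KO and 307, 301 and 192 CPM in WT libraries. In CD34- a6-high cells it had 403 and 400 CPM in KO and 302, 632 and 205 CPM in WT libraries. In CD34- a6-low cells it had 374 and 440 CPM in KO and 503, 420 and 328 CPM in WT libraries. All 5 CD34+ libraries thus lay below all 5 a6-low libraries, while the CD34- a6-high libraries spanned both ranges.

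Mycl, which encodes the activator L-MYC, had 5.96 and 6.17 CPM in KO and 3.69, 3.78 and 1.72 CPM in WT libraries of CD34+ a6-high cells. In CD34- a6-high cells it had 17.7 and 23.9 CPM in KO and 9.66, 10.1 and 3.76 CPM in WT libraries. In CD34- a6-low cells it had 16.4 and 7.17 CPM in KO and 11.5, 13.5 and 13.3 CPM in WT libraries. CD34+ libraries were the low ones, and WT replicate 3 was the single CD34- a6-high library within their range. Mycn, which acts in embryonic progenitors, ranged over 0.218 to 4.62 CPM in CD34+ a6-high, 0.531 to 1.31 CPM in CD34- a6-high and 0.291 to 2.49 CPM in a6-low libraries. These ranges overlapped throughout.

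Max, without which neither activators nor repressors bind, had 19.4 and 4.34 CPM in KO and 5.46, 2.25 and 1.72 CPM in WT libraries of CD34+ a6-high cells. It ranged over 4.12 to 14.1 CPM in CD34- a6-high and 2.18 to 17.2 CPM in a6-low libraries. No population stood apart, and the spread within a population was as large as the mean in CD34+ cells (6.63 ± 7.28 CPM, SD, n = 5).

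Mxd1, the repressor tied to keratinocyte differentiation, is the member on whose values the network was selected. It had 64.1 and 67.2 CPM in KO and 78.9, 70.6 and 74.9 CPM in WT libraries of CD34+ a6-high cells. It had 42.9 and 25.2 CPM in KO and 38.7, 43.4 and 46.0 CPM in WT libraries of CD34- a6-high cells. It had 143 and 114 CPM in KO and 81.8, 81.3 and 77.1 CPM in WT libraries of CD34- a6-low cells. CD34- a6-high libraries were the lowest 5 of all 15, without overlap with either other population.

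The other MXD genes did not share this pattern. Mxi1 stayed within 33.2 to 49.2 CPM in CD34+ a6-high, 40.5 to 60.4 CPM in CD34- a6-high and 34.9 to 49.7 CPM in a6-low libraries. Mxd3, the MXD gene known from proliferating cells in S phase, ranged over 4.92 to 14.1, 8.41 to 14.2 and 2.44 to 9.42 CPM in the same order. Mxd4 ranged over 3.88 to 15.6, 13.0 to 29.3 and 12.7 to 42.7 CPM. Ranges of each of these genes overlapped between populations. Short exon overlaps with genes on the opposite strand cover 2.8% of Mxi1, 4.4% of Mxd3 and 6.1% of Mxd4 exons. The kit does not mark strand, so reads there cannot be assigned to 1 gene. The gene that overlaps Mxd4 exons is absent from the count tables, unlike those that overlap Mxi1 and Mxd3 exons.

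Mnt, the broadly expressed MAX partner that opposes MYC, had 3.69 and 4.98 CPM in KO and 4.45, 4.07 and 2.38 CPM in WT libraries of CD34+ a6-high cells. It ranged over 3.60 to 7.45 CPM in CD34- a6-high and 7.24 to 7.96 CPM in a6-low libraries, and every CD34+ library lay below every a6-low library. Mga, the scaffold of PRC1.6, ranged over 5.96 to 17.4, 8.59 to 19.4 and 8.91 to 21.5 CPM in CD34+ a6-high, CD34- a6-high and a6-low libraries, which overlap.

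The ratio of a6-high over a6-low cells was taken for each same-numbered pair of CD34- libraries. Mxd1 had ratios of 0.3 and 0.221 in KO pairs and 0.473, 0.534 and 0.597 in WT pairs, below 1 in 5 of 5. Among all genes tested, 6.85% were lower in all 5 pairs and 0.901% had every a6-high library below every a6-low library, as Mxd1 did. Because this contrast led to the choice of the network, nothing is read from that comparison, nor from edgeR calling Mxd1, 1 of the 10 members, in it (0.00683% of all genes) or DESeq2 calling it too (1.6%). Without the pairs whose a6-low library had high Itga6, the Mxd1 ratios were 0.3 in KO replicate 1 and 0.534 and 0.597 in WT replicates 2 and 3. The a6-low libraries with high Itga6 still had 114 and 81.8 CPM of Mxd1, above every a6-high library of CD34- cells.

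Mxd3 ran the other way, with ratios of 2.99 and 1.61 in KO pairs and 1.63, 3.44 and 1.23 in WT pairs, above 1 in 5 of 5 (7.94% of all genes were). Mnt was below 1 in 4 of 5 pairs (0.469 to 1), and Mxi1 stayed between 0.903 and 1.26. Myc ratios were 1.08 and 0.909 in KO and 0.6, 1.51 and 0.624 in WT pairs, on both sides of 1. Max ratios ranged from 0.313 to 4.08 and Mycn ratios from 0.463 to 1.88. Without the pairs with high Itga6, which leaves KO replicate 1 and WT replicates 2 and 3, Mxd3 ratios were 2.99, 3.44 and 1.23. Mycn ratios were then 1.82, 1.72 and 1.88, and its fitted log2 difference was 1.36, against -0.29 with all libraries. Max ratios were then 1.64, 0.871 and 4.08, and its fitted log2 difference was 0.47, against -0.31 with all libraries. For the other members those ratios were 1.08, 1.51 and 0.624 for Myc, 1.08, 0.748 and 0.283 for Mycl, and 0.788, 1 and 0.469 for Mnt. They were 0.903, 1.26 and 1.16 for Mxi1, 0.899, 0.686 and 0.714 for Mxd4, and 1.64, 1.11 and 0.694 for Mga.

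**Figure D2:**
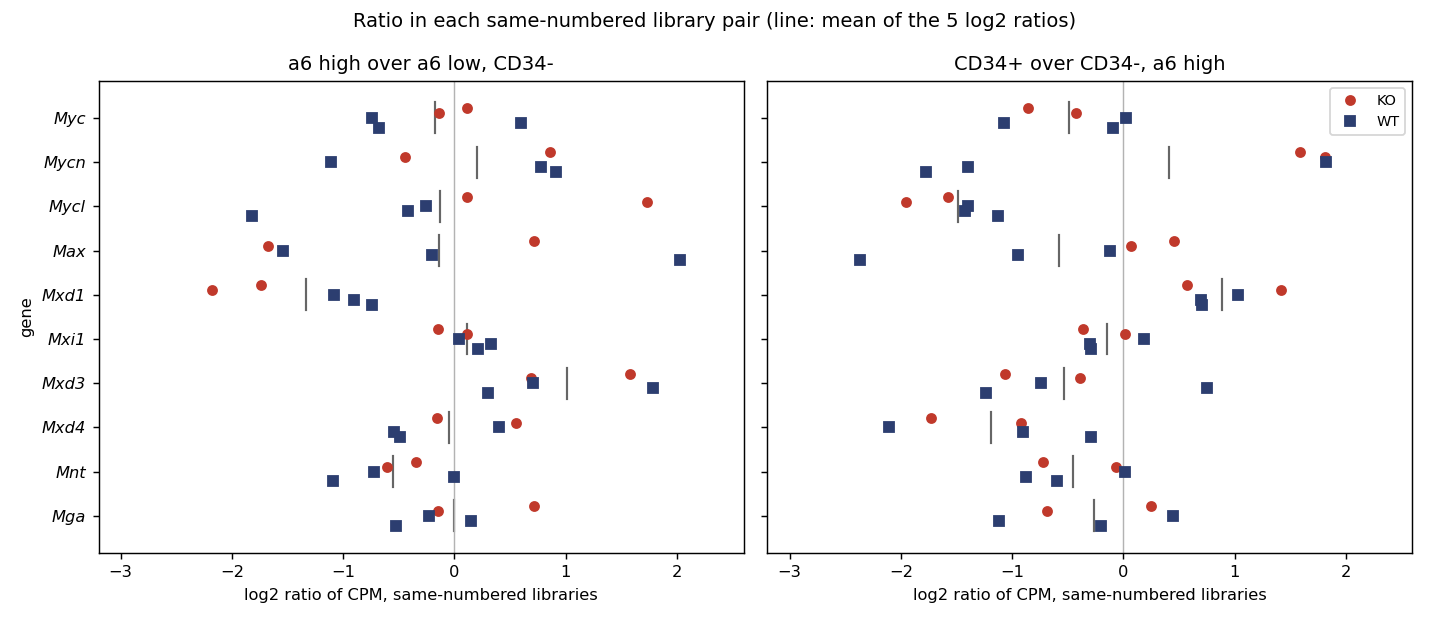
Log2 ratio of CPM in each same-numbered library pair for a6-high over a6-low CD34- cells (left) and CD34+ over CD34- a6-high cells (right), with KO pairs as circles and WT pairs as squares; the line is the mean of the 5 log2 ratios. Mxd1 lies below 0 in all 5 pairs on the left and above 0 in all 5 on the right, and Mycl and Mxd4 lie below 0 in all 5 on the right.

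Markers of differentiation are given beside Mxd1, and none of them passed in edgeR in this sort. All 20 measured suprabasal genes were lower in a6-high than in a6-low CD34- cells (median log2 difference -0.83), while all 15 basal genes (median 0.60) and all 24 cell cycle genes (median 0.76) were higher, against a median of -0.02 over all genes. Prdm1 and Grhl3, transcription factors of differentiating keratinocytes, had the lowest adjusted p among the suprabasal genes, 0.189 each. Krt10, the keratin of suprabasal cells, stood at 1246 to 4440 CPM in a6-high and 1833 to 12271 CPM in a6-low libraries. Macrophage and dendritic cell markers were lower for 12 of 13 tested genes. The 16 on the list summed to 17.9 to 139 CPM in a6-high and 40.6 to 201 CPM in a6-low libraries. Of these, Lyz2, the lysozyme of myeloid cells, was at 0 to 2.24 CPM in a6-high and 0.641 to 8.11 CPM in a6-low libraries. Cd68, a lysosomal protein, was at 5.96 to 10.0 CPM in a6-high and 9.36 to 19.2 CPM in a6-low libraries, and the defining receptor Csf1r at no more than 0.505 CPM in a6-high and 1.74 CPM in a6-low libraries. The part of these markers in the Mxd1 values was not tested. In bulk libraries, fewer cells of a type and less RNA per cell cannot be told apart.

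Within the a6-high cells, Mxd1 was higher and Mycl was lower in CD34+ than in CD34- cells. Mxd1 averaged 71.1 ± 5.91 CPM in CD34+ and 39.2 ± 8.28 CPM in CD34- libraries (SD, n = 5 each), with all 5 CD34+ libraries above all 5 CD34- libraries (2.56% of genes). Its log2 difference was 0.88 ± 0.15 (SE), or 1.84-fold, with an adjusted p of 0.0161 in edgeR's quasi-likelihood test. The same CD34- libraries entered the a6 comparison that led to the choice of the network, so this p is not independent of the choice. Pair ratios were 1.49 and 2.67 in KO and 2.04, 1.62 and 1.63 in WT pairs, above 1 in 5 of 5 (10.1% of genes).

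Mycl averaged 4.26 ± 1.84 CPM in CD34+ and 13.0 ± 7.85 CPM in CD34- a6-high libraries. Its log2 difference was -1.56 ± 0.33, or 0.338-fold, with an adjusted p of 0.0424 in edgeR. Pair ratios were 0.336 and 0.258 in KO and 0.381, 0.373 and 0.458 in WT pairs, below 1 in 5 of 5 (10.2% of genes). These were the 2 of 10 members that passed the adjusted threshold of 0.05 in this comparison, where 1.17% of all genes did (124 higher and 47 lower). DESeq2 also called 2 of 10 members, with 5.41% of its genes. Mxd1 is among them and is the member on whose values the network was selected, so nothing is read from these counts.

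The calls were sensitive to single libraries. Mxd1 no longer passed without KO replicate 1 of CD34+ cells (adjusted p = 0.0666), KO replicate 2 of CD34+ cells (0.0546) or KO replicate 2 of CD34- a6-high cells (0.0702), with the log2 difference between 0.71 and 1.1 over the 10 libraries left out in turn. Mycl passed in 2 of those 10 cases, without WT replicate 2 of CD34+ cells (adjusted p = 0.0455) or WT replicate 3 of CD34- a6-high cells (0.0196), with the log2 difference between -1.73 and -1.43. It did not pass without any of the other 8 libraries, at adjusted p-values up to 0.191. Without the 3 KO libraries numbered 2, which carry the Y-linked signal, neither passed (0.104 for Mxd1 and 0.181 for Mycl, edgeR).

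Mxd4 also had a ratio below 1 in 5 of 5 pairs, with 0.302 and 0.527 in KO and 0.232, 0.534 and 0.818 in WT pairs. Its log2 difference of -1.08 ± 0.45 did not pass in the unblocked edgeR fit (adjusted p = 0.278). The edgeR fit with the replicate block gave -1.18 ± 0.28 (adjusted p = 0.0387). That fit called 5.41% of all genes and 3 of the 10 members, Mxd1 among them. Myc had a log2 difference of -0.57 ± 0.27 (adjusted p = 0.354, 95% interval -1.16 to 0.02). Mnt was at 0.736-fold, Mxd3 at 0.693-fold, Mxi1 at 0.905-fold and Max at 0.807-fold, with none past the threshold. The median over the 10 members was -0.38, and 8 of 10 estimates were negative.

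Set beside the a6-low cells, CD34+ a6-high cells were lower in all 5 same-numbered pairs for 5 of 10 members, Myc, Mycl, Mxd1, Mxd4 and Mnt (14.4% of genes). Myc ratios were 0.593 and 0.677 in KO and 0.610, 0.716 and 0.584 in WT pairs. Libraries of Myc, Mycl and Mnt did not overlap between the populations, 3 of 10 members against 3.67% of genes. These values use the a6-low libraries of the contrast that led to the choice, so they are a description with no test, and they share CD34+ libraries with the CD34 comparison.

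The balance within the family is a description, since each measure that contains Mxd1 repeats the values on which the network was selected. Of the summed MXD level per kb, Mxd1 made up 39.9% to 56.4% in CD34+ a6-high, 20.2% to 34.5% in CD34- a6-high and 46.8% to 64.1% in a6-low libraries, so the CD34- a6-high range lay below both others. The ratio of Mxd1 to Mxi1 per kb was 1.33 to 2.18, 0.505 to 1.1 and 1.64 to 2.77 in the same order, and Mxi1 exceeded Mxd1 only in CD34- a6-high libraries. The summed MXD level was 17.3 to 25.0, 17.6 to 22.0 and 22.1 to 31.5 CPM per kb. Myc made up 95.9% to 99.3% of the summed MYC level in every library. Myc over Mxd1 was 6.66 to 11.5 in CD34+ a6-high, 11.6 to 41.3 in CD34- a6-high and 6.82 to 16.0 in a6-low libraries.

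**Figure D3:**
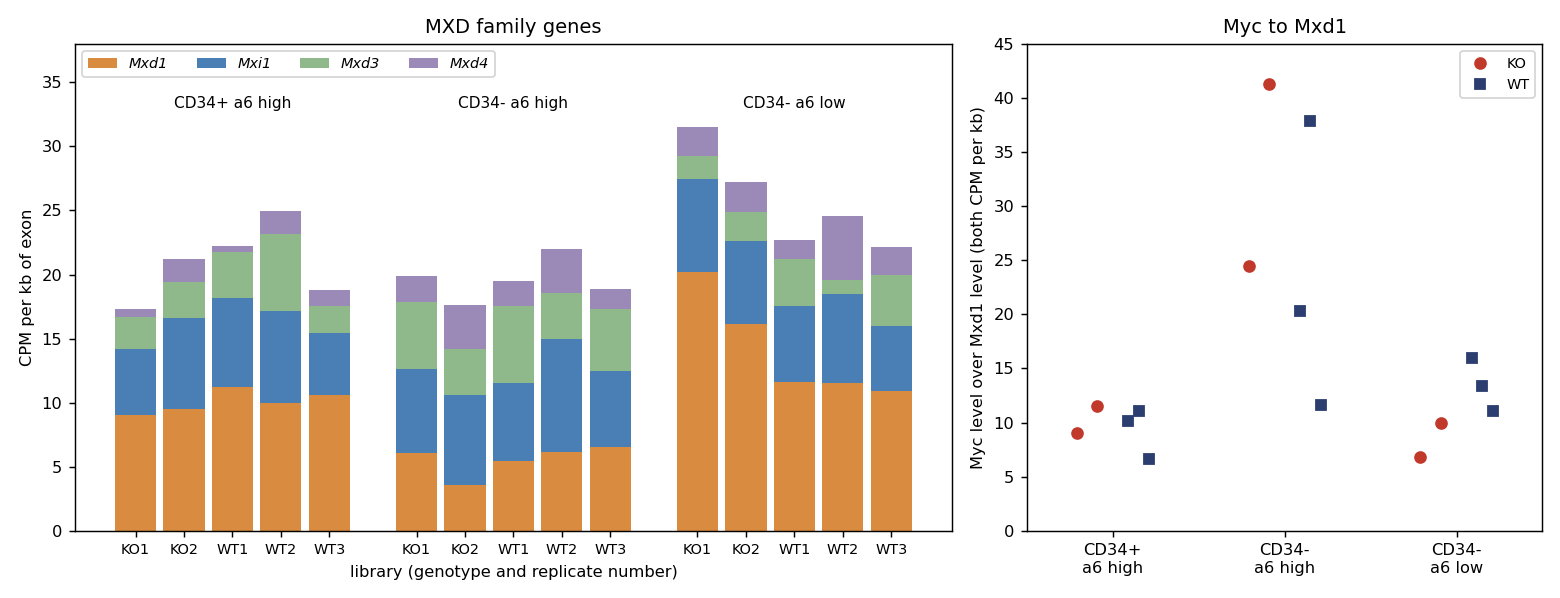
Left, stacked levels of the MXD genes in CPM per kb of exon (linear axis from 0) in each library, KO before WT within each population. Right, the level of Myc over that of Mxd1, both per kb, with KO as circles left of WT as squares; CD34- a6-high libraries have the smallest Mxd1 share (20.2% to 34.5%) and reach the highest Myc to Mxd1 ratio, 41.3.

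Differentiation markers gave no call in the CD34 comparison in edgeR without the replicate block. Of 20 suprabasal genes, 14 were higher in CD34+ cells (median log2 difference 1, against -0.02 over all genes), and 0 passed in edgeR without the block, while with the replicate block 9 passed as higher and 2 as lower. Sbsn, a secreted protein of suprabasal cells, averaged 152 ± 63.6 CPM in CD34+ and 61.3 ± 16.9 CPM in CD34- libraries (adjusted p = 0.0829 without and 0.00211 with the block). Krt10 ran lower instead, at 508 to 3644 CPM in CD34+ and 1246 to 4440 CPM in CD34- a6-high libraries. All 9 tested endothelial markers were higher, and the 12 on the list summed to 16.8 to 82.6 CPM in CD34+ and 5.88 to 11.2 CPM in CD34- libraries. Of 24 cell cycle genes 18 were higher and 0 passed without the block, while Ccne1, a cyclin of S phase entry (2-fold, adjusted p = 0.0108), and Plk1, a mitotic kinase (1.8-fold, adjusted p = 0.0441), passed with it. Of 13 tested macrophage and dendritic cell markers, 7 were higher and 6 lower (median 0.07). The 16 on that list summed to 27.6 to 64.7 CPM in CD34+ and 17.9 to 139 CPM in CD34- libraries, which overlap. Among them 1 passed, Cd68, with 14.1 to 22.5 CPM in CD34+ and 5.96 to 10.0 CPM in CD34- libraries (adjusted p = 0.0254, edgeR). All 6 tested fibroblast markers were lower and 1 passed, Thy1, a surface glycoprotein, with 0 to 0.274 CPM in CD34+ and 0.614 to 3.82 CPM in CD34- libraries (adjusted p = 0.0352). Il1r2 averaged 16.5 ± 11.8 CPM in CD34+ and 85.1 ± 49.9 CPM in CD34- libraries (adjusted p = 0.0841 without and 0.0344 with the block). The part of these markers in the Mxd1 and Mycl differences was not tested.

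Genes that MYC is known to activate were read as lists for ribosome biogenesis and for growth and metabolism. The 28 growth and metabolism genes summed to 11815 to 16365 CPM in CD34+ and 8420 to 10734 CPM in CD34- libraries, without overlap. A large part of these sums was 1 gene, Ldha, the lactate dehydrogenase of glycolysis. It averaged 6466 ± 1759 CPM in CD34+ and 3407 ± 360 CPM in CD34- libraries, so the sums do not speak for the list as a whole. The 24 ribosome biogenesis genes summed to 4606 to 6582 CPM in CD34+ and 4406 to 5641 CPM in CD34- libraries, which overlap. Of 24 ribosome biogenesis genes 0 passed in edgeR, with and without the block, and their median log2 difference was 0.07. Fbl, the methyltransferase of ribosomal RNA, averaged 197 ± 58.5 CPM in CD34+ and 149 ± 23.4 CPM in CD34- libraries (adjusted p = 0.44), and Npm1, a nucleolar chaperone, 844 ± 200 and 709 ± 26.8 CPM in the same order (adjusted p = 0.51). Of 27 growth and metabolism targets, 1 passed as higher and the median was 0.15. That gene was Slc3a2, the heavy chain of amino acid transporters, which rose to 686 ± 105 CPM in CD34+, against 411 ± 57.4 CPM in CD34- libraries (1.7-fold, adjusted p = 0.0318). With the replicate block Ldha at 1.84-fold (adjusted p = 0.0108) and Odc1, the first enzyme of polyamine synthesis, at 2.36-fold (adjusted p = 0.0137) passed as well.

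Genes around the network gave few calls in the CD34 comparison. Of 9 genes that MYC represses with MIZ1, 0 passed without the block, and Cdkn1c, a cell cycle inhibitor, passed with it (2.16-fold, adjusted p = 0.0416). In the MLX arm, which senses glucose, 0 of 6 passed without the block. Txnip, the glucose-responsive target of that arm, averaged 20.3 ± 13.9 CPM in CD34+ and 89.5 ± 88.9 CPM in CD34- libraries (adjusted p = 0.165 without and 0.0238 with the block). Of 15 genes for MYC protein turnover 0 passed without the block. Fbxw7, the ubiquitin ligase subunit that marks MYC for degradation, averaged 14.9 ± 7.45 CPM in CD34+ and 32.2 ± 9.89 CPM in CD34- libraries (adjusted p = 0.175 without and 0.0364 with the block). None of the 17 SIN3 corepressor genes, 17 coactivators or 14 PRC1.6 genes passed in either fit, with medians of -0.01, -0.01 and -0.05. Ruvbl2, a helicase among the coactivators, was at 1.63-fold (adjusted p = 0.173), and Yaf2 of PRC1.6 at 1.31-fold (adjusted p = 0.169).

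Between genotypes, no network gene passed the threshold in any population. In each population 0.00683% of all genes did, 1 gene, and 0 of 10 members, with 1 of 10 members at an unadjusted p under 0.05 each time. DESeq2 likewise called 0 of 10 members while calling 27 genes (0.197%) in CD34+ a6-high, 33 (0.179%) in CD34- a6-high and 6 (0.0239%) in a6-low cells, and edgeR gave unadjusted p-values under 0.05 for 1112, 1405 and 687 genes. On simulated counts the edgeR test recovered 2%, 5% and 0% of 2-fold and 44%, 42% and 42% of 4-fold changes in these comparisons, so changes of such size can be missed.

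Mycl had the most separated genotype values in a6-high cells. Its KO libraries lay above its WT libraries in CD34+ a6-high cells (log2 difference 0.98 ± 0.46, 95% interval -0.02 to 1.97, adjusted p = 0.652) and in CD34- a6-high cells (1.40 ± 0.45, 0.44 to 2.37, adjusted p = 0.498, edgeR). In a6-low cells KO libraries at 16.4 and 7.17 CPM enclosed the WT libraries at 11.5 to 13.5 CPM. Of all genes, 28.1% had KO and WT libraries that did not overlap in CD34+ a6-high, 30.2% in CD34- a6-high and 14.9% in a6-low cells. Of the 10 members, 2 did so in each population.

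Max in CD34+ a6-high cells had the largest estimate, 1.89 ± 0.84 on the log2 scale (95% interval 0.08 to 3.71, adjusted p = 0.652). It rested on KO replicate 1 at 19.4 CPM, since without that library the log2 difference was 0.45 (adjusted p = 0.971), and KO replicate 2 at 4.34 CPM lay inside the WT range. With no filter on low counts, Max passed in edgeR (adjusted p = 0.0328). Mga in CD34- a6-high cells stood at 14.6 and 19.4 CPM in KO and 10.6, 12.9 and 8.59 CPM in WT libraries (0.67 ± 0.41, adjusted p = 0.576). Those libraries did not overlap, but the difference was within the spread the test allows.

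Mxd1 in a6-low cells had 143 and 114 CPM in KO and 77.1 to 81.8 CPM in WT libraries, without overlap. Its log2 difference was 0.68 ± 0.21 (95% interval 0.23 to 1.14, adjusted p = 0.865, edgeR). The a6-low libraries entered the comparison that led to the choice of the network, so this interval and p are not independent of the choice. In CD34+ a6-high cells the KO libraries, at 64.1 and 67.2 CPM, lay below the WT libraries, at 70.6 to 78.9 CPM, and in CD34- a6-high cells they overlapped. In the a6-low libraries 17 of 20 suprabasal genes had higher values in KO (median 0.50, 0 passed). Of 24 cell cycle genes there, 21 had lower values in KO (median -0.42, 0 passed). The 16 macrophage and dendritic cell markers summed to 200 and 201 CPM in KO and 40.6 to 122 CPM in WT libraries, with 10 of 13 tested higher (0 passed). The 7 melanocyte markers summed to 3.77 and 141 CPM in KO and 1.32 to 2.77 CPM in WT libraries, with 5 of 5 tested higher (0 passed). The part of these markers in the Mxd1 values was not tested. Mxd3 in the same cells was at 4.14 and 5.31 CPM in KO and 8.70, 2.44 and 9.42 CPM in WT libraries (log2 difference -0.55 ± 0.52, adjusted p = 0.878), which overlap.

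Counts summed over the 3 populations of each genotype and number gave the same result, with 0 of 10 members past the threshold in edgeR (0.00641% of genes) and in DESeq2, which called 143 genes (0.914%). Unadjusted p-values were under 0.05 for 1656 genes in edgeR. Mycl had a log2 difference of 0.71 ± 0.21 (95% interval 0.20 to 1.21, adjusted p = 0.461) and Mga of 0.50 ± 0.22 (adjusted p = 0.476). Ribosome biogenesis targets had 0 of 24 genes past the threshold and a median of -0.08, against 0.03 over all genes. Growth and metabolism targets had 0 of 28 and a median of -0.12, with 20 lower. Nop16, a nucleolar protein of ribosome assembly, averaged 191 ± 22.8 CPM over 6 KO and 282 ± 53.4 CPM over 9 WT libraries (SD, adjusted p = 0.461 in the sums). Nop58, also on the ribosome biogenesis list, ran the other way, with a log2 difference of 0.79 ± 0.32 (SE, adjusted p = 0.466, edgeR on the sums). Its mean level was 313 ± 79.7 CPM for KO against 166 ± 93.9 CPM for WT (SD). Of the 24 genes on that list, 9 were higher and 15 lower in KO.

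**Figure D4:**
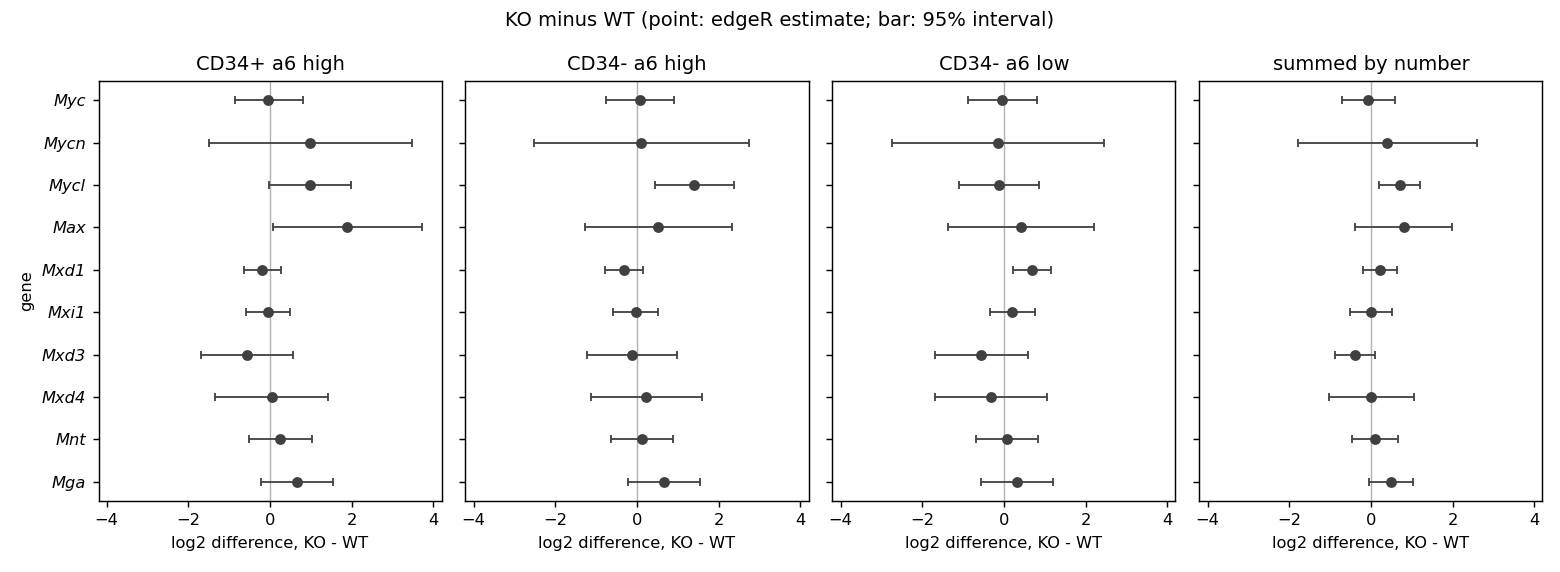
KO minus WT log2 difference of each network gene in the 3 populations and in counts summed by genotype and number; points are edgeR estimates and bars 95% intervals. No gene passed the adjusted threshold. Unadjusted intervals leave out 0 for Max in CD34+ (1.89) and Mycl in CD34- a6-high cells (1.40). They also leave out 0 for Mxd1 in a6-low cells (0.68) and Mycl in the sums (0.71). The network was selected on Mxd1 values that include the a6-low libraries.

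Whether the sort differences depended on genotype was tested as an interaction. No member passed for CD34 or for a6, and neither did any gene in edgeR (0% of genes), which had 159 and 168 genes at an unadjusted p under 0.05, while DESeq2 called 1 gene (0.00398%) and 0 genes. At an unadjusted p under 0.05 there were 0 of 10 members for CD34 and 2 of 10 for a6, Mxd1 and Mycl. The Mxd1 values of the a6 comparison led to the choice of the network, so the Mxd1 interval and p here are not independent of the choice. For a6, Mxd1 had an interaction of -1.01 ± 0.30 on the log2 scale (95% interval -1.66 to -0.36, adjusted p = 1 in edgeR), the a6-high to a6-low ratio being 0.221 to 0.3 in KO and 0.473 to 0.597 in WT pairs. Mycl had an interaction of 1.52 ± 0.64 (95% interval 0.12 to 2.91, adjusted p = 1 in edgeR), with ratios of 1.08 and 3.33 in KO and 0.838, 0.748 and 0.283 in WT pairs. The high KO ratio of Mycl comes from replicate 2, whose a6-low library had high Itga6, and without that library the interaction was 1.04 for Mycl and -1.16 for Mxd1. For CD34, Max had an interaction of 1.38 ± 1.2 and Mycl of -0.43 ± 0.65, both with adjusted p-values of 1 in edgeR.

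Genes whose pattern was most like that of Mxd1 were ranked by Pearson correlation of log2(CPM + 1) over the 15 libraries, among 9282 genes with a mean log2 CPM of at least 2. The libraries share populations, numbers and depth, so the correlations are descriptive. The 5 closest were Por (0.913), the reductase that feeds electrons to cytochrome P450 enzymes, Rnf11 (0.904), a ubiquitin ligase adaptor, Klf7 (0.877), a transcription factor, Rab11fip1 (0.860), an effector of recycling endosomes, and Fam110a (0.853). Por stood at 144 to 177 CPM in CD34+ a6-high, 99.3 to 141 CPM in CD34- a6-high and 141 to 205 CPM in a6-low libraries. Klf7 stood at 26.9 to 45.7, 23.1 to 29.2 and 36.0 to 60.0 CPM in the same order. By rank correlation 2 of these 5 stayed among the closest 5, Rnf11 and Klf7.

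For Myc the 5 closest were Eif4a2 (0.923), a translation initiation helicase, Clk1 (0.923), a kinase of splicing factors, Irx5 (0.918), a homeobox factor, Irf1 (0.914), an interferon-responsive transcription factor, and Klf9 (0.905), a transcription factor. Irf1 stood at 34.6 to 150 CPM in CD34+ a6-high, 59.2 to 263 CPM in CD34- a6-high and 150 to 299 CPM in a6-low libraries. By rank correlation Eif4a2 and Klf9 stayed among the closest 5. None of the network's other members was among the closest genes of Mxd1 or Myc.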

How the data were processed

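Per the labels' protocols, cDNA of sorted tumour cells was made with the SMART-Seq v4 kit, which does not mark strand. The authors deposited raw counts of reads for each Ensembl gene, not normalized. The tools HTSeq 0.6.0, STAR 2.3.0 and Picard 1.100 and the build mm9 are listed, without their roles, per the submitters' processing notes. The annotation release was not given in the sources used here. Reads aligned to several places (29.86% to 38.04% of records) were not counted for genes and stayed out of library sizes, as did reads outside genes (2.61% to 5.13%) and in more than 1 gene (1.86% to 2.20%). Names, exon lengths and exon overlaps between genes came from GENCODE M21, which belongs to another build, so none of its coordinates are printed.

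The main test was the quasi-likelihood F test of edgeR 4.0.16 in R 4.3.3, after filterByExpr and TMM scaling. A single fit held the 15 libraries with a term per group and Benjamini-Hochberg adjustment at 0.05 over all genes of a comparison. Standard errors were derived from the F statistic, and 95% intervals from the t distribution on the fit's degrees of freedom. The sums by genotype and number were tested over 15597 genes. CPM used TMM-scaled library sizes. On simulated counts with 200 changed genes, the CD34 comparison recovered 25% of those changed 2-fold and 60% of those changed 4-fold. Chi-square per degree of freedom between libraries of a group was 26.9 to 195, well above sampling noise. Each library counted as its own sample. This value cannot show that they are, since it does not tell separate animals from repeat preparations of an animal.

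The members, gene lists, comparisons and tests were chosen with earlier results of these data known. The naming rule took all members in every library, list genes past the threshold (up to 4, or the 2 with the smallest p) and the 5 genes most like Mxd1 and Myc, and not every gene it takes is printed. Marker genes given only as levels, and the Y-linked genes, were chosen after their values were seen.

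Pairing of same-numbered libraries was judged from how their deviations from group means correlated. The correlation was 0.104 to 0.530 between CD34+ and CD34- a6-high libraries, above 0.1 in 5 of 5. On the evidence of the data alone these were treated as pairs in the pair ratios and in the fit with the replicate block. The main edgeR fit held no term for pairs, so its p-values do not use the pairing. Deviations of the 2 KO libraries are mirror images, and both KO pairs share a value. Between a6-high and a6-low CD34- libraries it was above 0.1 in 3 of 5. KO and WT libraries of a number were not taken as pairs. Only the replicate block tried for KO minus WT grouped them by number. Other settings tried were no filter on low counts, DESeq2 1.42.0, edgeR with the size factors of DESeq2, at least 10 CPM in 2 libraries, the compared groups only, the replicate block, the longest transcript for levels per kb, and leaving out libraries.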

Additional observations from a re-analysis of the deposited data

Results flagged for a closer look

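Each population's 5 libraries were checked for a library far from the others, in 30 checks, of which chance alone would flag about 1 in 20. Max at 19.4 CPM in KO replicate 1 of CD34+ a6-high cells stood apart from the other 4 libraries, at 1.72 to 5.46 CPM. Mxd4 at 42.7 CPM in WT replicate 2 of a6-low cells stood apart from the others of that population, at 12.7 to 19.7 CPM. Mga at 21.5 CPM in KO replicate 2 of a6-low cells stood apart from the others, at 8.91 to 12.4 CPM.

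Pair ratios were also compared between genotypes, in 30 checks. For each of the members Mycl and Max every KO pair lay on one side of 1 and every WT pair on the other. With so few pairs, chance alone can give such splits among 30 checks. Mycl had a6-high to a6-low ratios of 1.08 to 3.33 in KO and 0.283 to 0.838 in WT pairs, so that the mean KO ratio was 2.21, and the interaction test of this difference did not pass after adjustment (adjusted p = 1, edgeR). Max had CD34+ to CD34- ratios of 1.05 to 1.37 in KO and 0.194 to 0.923 in WT pairs, with a mean KO ratio of 1.21, and its interaction did not pass either (adjusted p = 1, edgeR).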

How the results depend on the processing

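In the CD34 comparison 2 members were called, and 0 to 2 when each library was left out in turn, 0 without the 3 KO libraries numbered 2, and 3 with no filter or with the replicate block. For KO minus WT in CD34+ a6-high cells, 1 member (Max) was called with no filter and 0 with any other alternative run. For a6, 0 members were called in the compared groups only and 0 without the 3 KO libraries numbered 2, against 1 in the main fit. The direction of some uncalled members turned. In the CD34 comparison the log2 difference ranged over -0.05 to 1.7 for Mycn and -1.04 to 0.27 for Max when each library was left out, and was 0.03 for Mga without the 3 KO libraries numbered 2. The Max interaction of CD34 and genotype ranged over -0.08 to 2.52 when each library was left out, an alternative chosen after seeing the data. With the replicate block the log2 differences in the CD34 comparison were 0.90 for Mxd1 and -1.56 for Mycl, both called, and the block changed the call of no other member than Mxd4 there. For a6 the block gave -1.42 for Mxd1. Over all genes, 171 were called in the CD34 comparison, 793 with the block, 846 by DESeq2, 1242 with no filter, 311 in the compared groups only and 32 without the 3 KO libraries numbered 2. The a6 comparison called 1 gene, 60 with the block, 227 by DESeq2, 602 with no filter and 342 without the a6-low libraries with high Itga6. KO against WT called 1 gene in each population, and 195, 256 and 156 with no filter in CD34+ a6-high, CD34- a6-high and a6-low cells; the sums gave 1, and 51 as a mean over the 3 populations. By longest transcript Mycl ranked 7, Max 5 and Mxd4 6 by level. The cause of these changes was not tested.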
